A study of Homo sapiens with 4 samples.

Results

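The genes described here make cholesterol and fatty acids, or control that synthesis. A list of 28 such genes was matched to the array's probe sets by gene symbol, and 26 of the 28 had a probe set of their own, out of 18417 genes with a value on the array. FDFT1 had no listed probe set, and the single probe set of HSD17B7 also names the pseudogene HSD17B7P2, so neither was given a value. The 26 are 7 enzymes of the mevalonate pathway, 9 later sterol enzymes, 5 regulators with the sterol carrier STARD4, and 4 fatty acid enzymes. RNA came from U266, a multiple myeloma line, given vehicle (DMSO) or 15 µM atovaquone for 2 h. It also came from K562, a chronic myeloid leukaemia line, given vehicle (DMSO) or 20 µM atovaquone for 5 h. All groups grew in medium with fetal bovine serum, which supplies lipoprotein cholesterol. Atovaquone is an antimalarial hydroxynaphthoquinone that inhibits the mitochondrial cytochrome bc1 complex. There was 1 array in each of the 4 groups, so no value has a replicate, no test was run, and each ratio describes 1 pair of arrays. Dose and time differ between the lines as well.

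Animal cells build sterols from acetyl-CoA through mevalonate and squalene, and fatty acids from acetyl-CoA through malonyl-CoA. Both routes are switched on by the sterol regulatory element-binding proteins, membrane-bound transcription factors encoded by SREBF1 and SREBF2. When membrane sterol is plentiful, the INSIG proteins hold the SREBP escort SCAP in the endoplasmic reticulum. When sterol is scarce, SCAP carries SREBP to the Golgi, where it is cut and its active part moves to the nucleus. INSIG1 is itself a target of SREBP, which makes it a feedback brake, and its transcript is short-lived.

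With atovaquone, INSIG1 had the highest ratio to vehicle of the listed genes in both lines, and most of the others lay close to vehicle. In U266, 0 of 26 genes passed 1.5-fold in the upward direction and 0 in the downward direction, where 0.857% and 0.0932% of the 10731 genes measured on both U266 arrays did. In K562, 1 of 25 measured genes, INSIG1, was at least 1.5-fold higher and 0 were lower, where the shares over 10756 genes were 1.42% and 0.697%. A gene is called measured when both arrays lie at or above the array's floor, set at its 40th percentile of intensity. The median log2 ratio of the listed genes was −0.0041 in U266 and 0.0081 in K562, beside −0.00012 and −0.0057 over all measured genes. Ratios were within 10% of vehicle for 16 of 26 listed genes in U266 and 14 of 25 in K562, beside 72.6% and 54.4% of all measured genes.

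As a yardstick for the noise of a single ratio, pairs of probe sets of 1 gene were compared. Their log2 ratios varied with an SD of 0.11 in U266, over 298 genes, and 0.12 in K562, over 323 genes. This spread lies within the arrays and leaves out the spread between cultures. In U266, INSIG1 and HMGCS1 were more than 2 SD above 0, and FASN and SCAP more than 2 SD below it, which is 2 of 26 each way, where 5.78% and 5.07% of all measured genes lay. In K562, 5 of 25 were more than 2 SD above 0, where 11.4% of all measured genes lay. They were INSIG1, MSMO1, STARD4, IDI1 and ACAT2. SREBF1 was the 1 gene more than 2 SD below 0, where 11.0% of all measured genes lay.

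**Figure D1:**
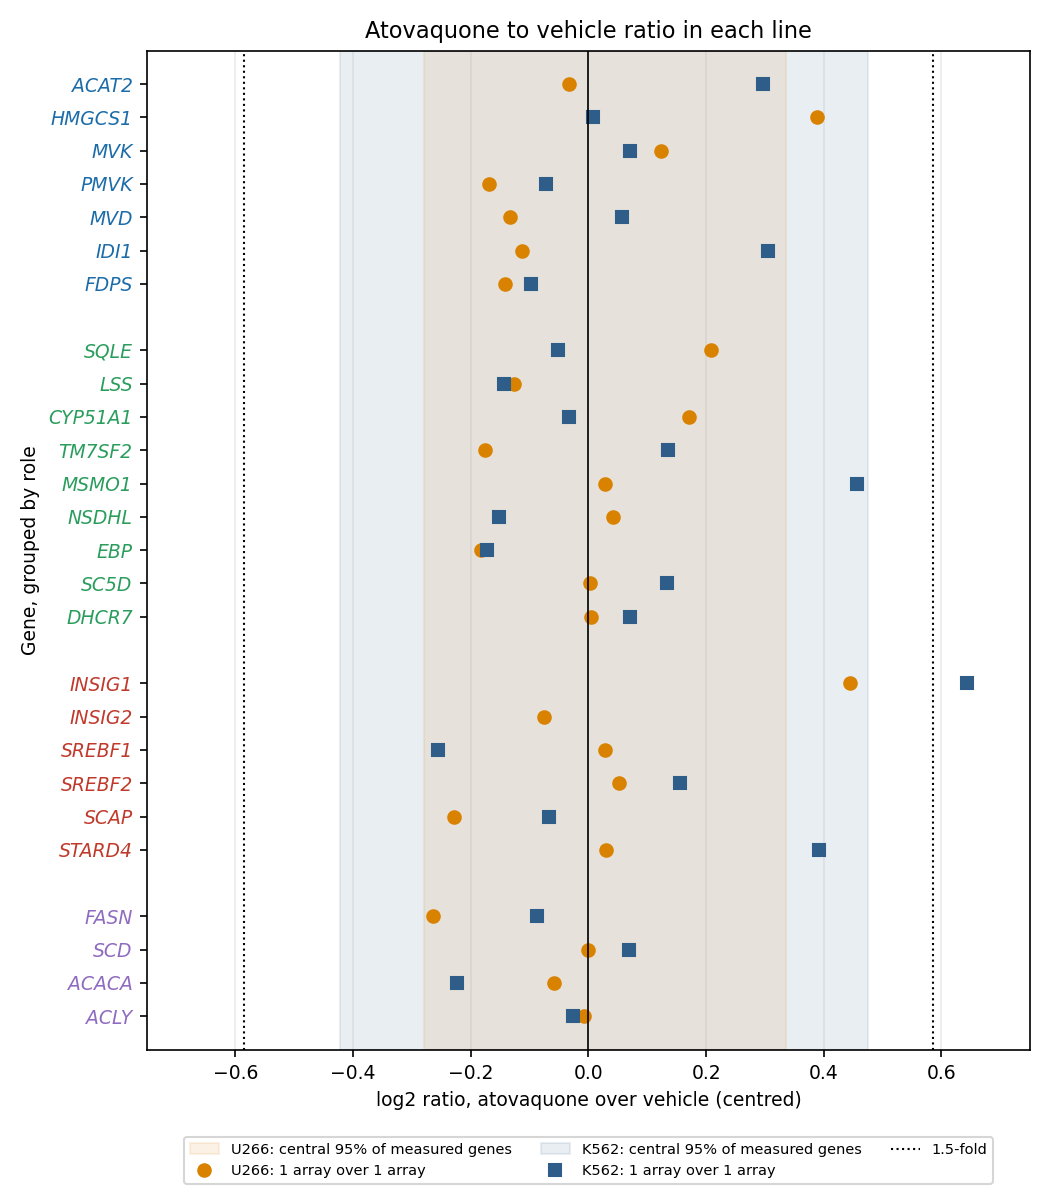
The log2 ratio of atovaquone to vehicle (x axis, centred on all measured probe sets) is plotted for each gene, with circles for U266 and squares for K562, each 1 array over 1 array. Shaded bands span the central 95% of all measured genes in the same line. INSIG1 lies above both bands, at 0.44 in U266 and 0.64 in K562, HMGCS1 lies above the U266 band at 0.39, and the other genes lie within the band of their line.

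Among the regulators, INSIG1 stood apart from its partners. INSIG1, the SREBP target that retains SCAP, had intensities of 1556 with vehicle and 2102 with atovaquone in U266, and 1161 with vehicle and 1807 with atovaquone in K562. That was 1.36-fold higher in U266 and 1.56-fold higher in K562. The ratio ranked 150 from the highest among 10731 genes in U266 and 115 among 10756 in K562. Of 9222 genes measured on all 4 arrays, 11, INSIG1 included, had a ratio at least as high as that of INSIG1 in both lines. Under 6 other settings of floor, centring, normalisation and probe sets the log2 ratio of INSIG1 stayed between 0.43 and 0.45 in U266 and between 0.64 and 0.65 in K562. That narrow range was largely fixed beforehand. INSIG1 has 1 probe set and lies above every floor used, so the floor settings act on it only through the centring. The mean over probe sets cannot change it.

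The promoters of INSIG1, of MSMO1 and STARD4, which had the next highest ratios in K562, and of HMGCS1, which had the next highest in U266, are shown so that their letters can be compared. Each is the 250 bases before the gene's start in RefSeq (GRCh38.p14), read 5′ to 3′ along the gene's strand. They are chr7:155297628-155297877 on the plus strand for INSIG1, chr4:165327419-165327668 on the plus strand for MSMO1, chr5:111512536-111512785 on the minus strand for STARD4, and chr5:43313413-43313662 on the minus strand for HMGCS1, taken at the outermost of its 2 listed starts. Capitals mark CCAAT on either strand, the letters bound by the SREBP partner NF-Y, and TCANNTGA, a palindromic form bound by SREBP.
INSIG1: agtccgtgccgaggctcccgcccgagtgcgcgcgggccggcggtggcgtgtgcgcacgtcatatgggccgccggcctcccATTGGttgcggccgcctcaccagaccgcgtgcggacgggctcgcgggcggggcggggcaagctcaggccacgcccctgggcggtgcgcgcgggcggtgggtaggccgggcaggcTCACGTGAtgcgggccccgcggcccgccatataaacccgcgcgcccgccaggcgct
MSMO1: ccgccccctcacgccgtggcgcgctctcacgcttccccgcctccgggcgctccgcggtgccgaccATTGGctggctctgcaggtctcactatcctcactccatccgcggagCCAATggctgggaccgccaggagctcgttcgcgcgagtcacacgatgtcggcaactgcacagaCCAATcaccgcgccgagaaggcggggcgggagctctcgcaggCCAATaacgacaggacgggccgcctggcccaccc
STARD4: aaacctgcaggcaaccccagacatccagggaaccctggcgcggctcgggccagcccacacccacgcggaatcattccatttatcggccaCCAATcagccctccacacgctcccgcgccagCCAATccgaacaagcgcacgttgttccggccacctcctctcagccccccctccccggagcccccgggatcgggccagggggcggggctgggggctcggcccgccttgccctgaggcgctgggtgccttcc
HMGCS1: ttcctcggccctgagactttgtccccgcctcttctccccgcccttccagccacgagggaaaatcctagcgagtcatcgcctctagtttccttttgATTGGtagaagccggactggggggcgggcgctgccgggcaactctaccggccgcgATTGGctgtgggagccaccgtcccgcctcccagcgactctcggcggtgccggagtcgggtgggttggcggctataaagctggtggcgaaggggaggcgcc
INSIG1 holds 1 CCAAT match, which begins 170 bases before the start on the opposite strand, and 1 TCANNTGA match, which begins 56 bases before it. MSMO1 holds 4 CCAAT matches, and STARD4 and HMGCS1 hold 2 each. None of these 3 has a TCANNTGA match in the window.

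RefSeq promoters were matched for 24 of the 28 listed genes, with 33 windows because some genes have several starts. CCAAT was present on either strand in 23 of the 33 windows, or 69.7%, beside 32.0% of all 35116 windows of the same length. GGGCGG, the letters of an Sp1 site, was present on either strand in 90.9%, beside 42.6% of all windows and 54.7% of windows of genes on the array. TCANNTGA was present in 2 of 33, those of INSIG1 and EBP, or 6.06%, beside 6.12% of all windows. TCACNCCAC, a form of the classical sterol regulatory element, was present in 1, that of SREBF2, beside 0.883% of all windows. Each motif was searched on its own, so matches of different motifs may overlap, and a match describes the sequence only. CCAAT was found in 19 genes, among them LSS and EBP, whose ratios lay below 0 in both lines.

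INSIG2, the other retention protein, was not higher with atovaquone. Its intensities in U266 were 536 with vehicle and 506 with atovaquone, a log2 ratio of −0.07. In K562 they were 248 and 235, both under the floor, so that line gives no ratio.
SCAP, the escort protein, had intensities of 1097 with vehicle and 929.99 with atovaquone in U266, and 1579 and 1503 in K562. It was on the low side in both lines, with log2 ratios of −0.23 and −0.07.

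The factor genes themselves showed no shared direction. SREBF2, which encodes the factor that mainly drives sterol genes, had intensities of 1778 with vehicle and 1830.25 with atovaquone in U266, and 2066 and 2293 in K562. Its log2 ratios were 0.05 and 0.16. SREBF1, which encodes the factor that mainly drives fatty acid genes, had intensities of 585 and 592 in U266 and 608 and 508 in K562. Its K562 log2 ratio of −0.26 was the lowest of the listed genes in that line, beside 0.03 in U266. STARD4, a soluble carrier of sterol between membranes, stood at 404 and 409 in U266 and at 436 and 569.6 in K562. That was 1.31-fold higher with atovaquone in K562 and 1.02-fold higher in U266.

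**Figure D2:**
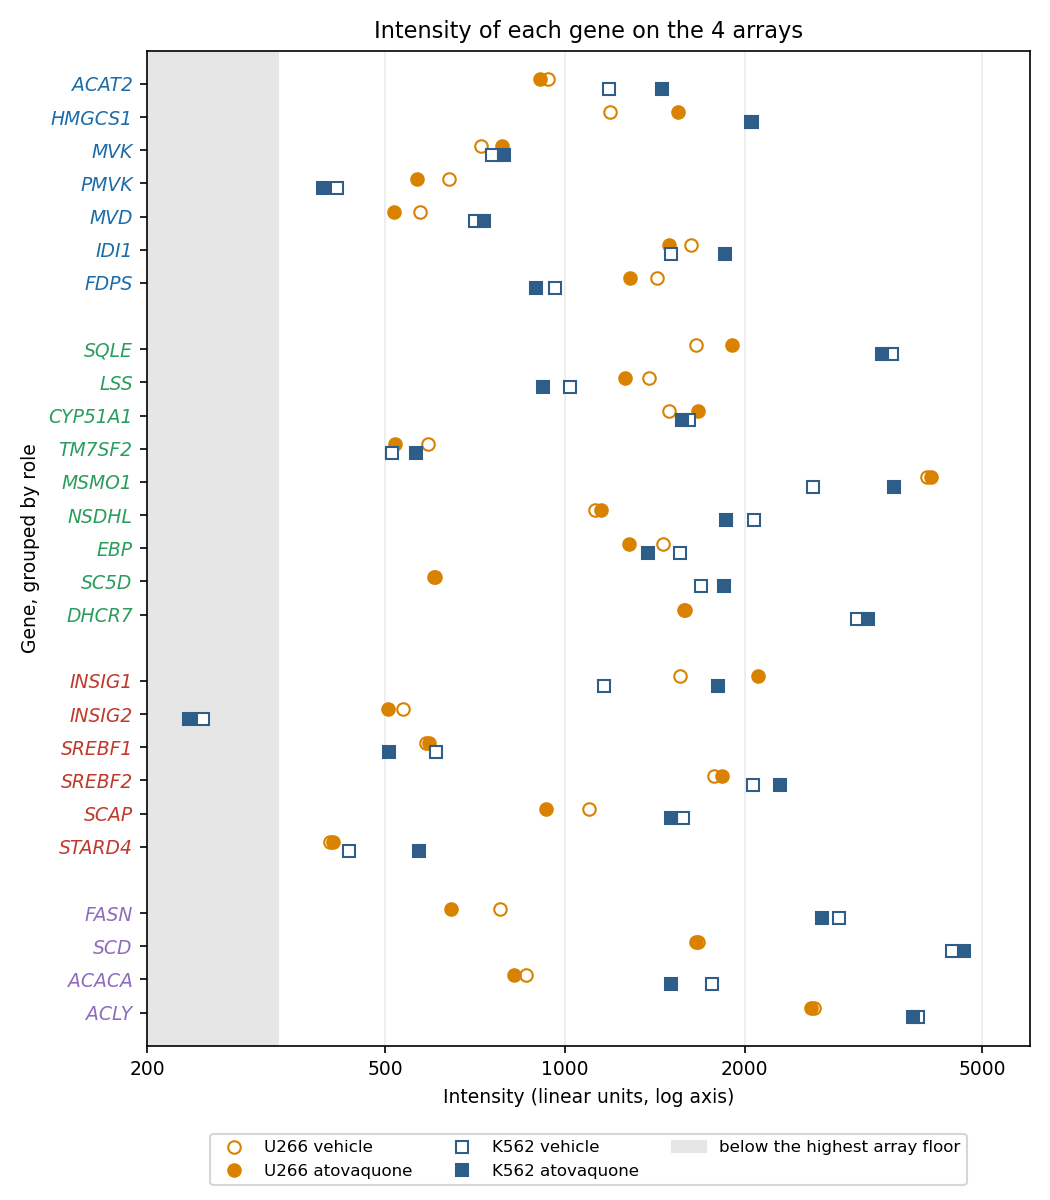
The intensity of each gene (x axis, linear units on a log axis) is plotted on the 4 arrays, with open symbols for vehicle, filled symbols for atovaquone, circles for U266 and squares for K562. Grey marks intensities below the highest array floor of 331. INSIG1 moves to the right with atovaquone in both lines, INSIG2 in K562 lies in the grey area, and for FASN, SCD, ACACA, SC5D and SQLE the K562 symbols lie to the right of the U266 symbols.

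Of the 7 mevalonate enzymes, 2 lay above vehicle in U266 and 5 in K562, with median log2 ratios of −0.11 and 0.06 and 0 genes past 1.5-fold in either line. HMGCS1, the synthase that condenses acetyl-CoA with acetoacetyl-CoA, had the highest U266 ratio of all the listed enzymes. Its intensities were 1188 with vehicle and 1545 with atovaquone in U266, and 2049 and 2054 in K562. It was thus 1.31-fold higher in U266 and 1.01-fold in K562, a difference between lines that was not tested.

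ACAT2, the thiolase that supplies acetoacetyl-CoA, and IDI1, the isomerase of isopentenyl diphosphate, had the opposite pattern. ACAT2 had intensities of 936 with vehicle and 908.5 with atovaquone in U266, and 1186 and 1453 in K562. IDI1 had intensities of 1629 and 1496 in U266, and 1504 and 1853 in K562. Their K562 ratios were 1.23-fold and 1.24-fold, while in U266 both lay slightly below vehicle, at −0.03 and −0.11 on the log2 scale.

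Ratios of the remaining mevalonate enzymes lay between −0.17 and 0.12 on the log2 scale in U266 and between −0.10 and 0.07 in K562. MVK, mevalonate kinase, had intensities of 724 and 784 in U266 and 756 and 791 in K562, slightly above vehicle in both. PMVK, the kinase of the next step, had 641 and 567 in U266 and 416 and 394 in K562, below vehicle in both. MVD, the decarboxylase, had 571 and 517 in U266 and 706 and 732 in K562. FDPS, which makes farnesyl diphosphate, had 1426.5 and 1285 in U266 and 962 and 896 in K562. Of these 4, only MVK was above vehicle in both lines, at log2 ratios of 0.12 and 0.07.

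Of the 9 sterol enzymes with a value, 6 lay above vehicle in U266 and 4 in K562, with median log2 ratios of 0.0043 and −0.03 and 0 genes past 1.5-fold. The means had the opposite sign, at −0.0030 and 0.03. MSMO1, the C4-methylsterol oxidase, had intensities of 4044 with vehicle and 4097 with atovaquone in U266, and 2602 and 3558 in K562. Its ratio of 1.37-fold in K562 ranked 306 from the highest of all genes there and was second to INSIG1 among the listed genes, and in U266 it was 1.02-fold. SQLE, squalene epoxidase, had intensities of 1656 and 1901 in U266 and 3534 and 3396 in K562, which was 1.16-fold higher in U266 and −0.05 on the log2 scale in K562. CYP51A1, the lanosterol demethylase, was alike, at 1494 and 1671 in U266 and 1615 and 1572 in K562. Its other probe set gave log2 ratios of 0.08 and −0.06, with the same directions.

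The other 6 sterol enzymes lay on both sides of vehicle. SC5D, the C5-desaturase, had intensities of 606 and 603 in U266 and 1691 and 1849 in K562. DHCR7, which makes cholesterol in the last step of one branch, had 1591 and 1585 in U266 and 3080.1 and 3223 in K562. In U266 these 2 lay within 0.01 of 0 on the log2 scale, and their sign there depends on the centring. In K562 both lay above vehicle, at 0.13 for SC5D and 0.07 for DHCR7.
LSS, which closes lanosterol's rings, had intensities of 1385 and 1259.99 in U266 and 1019 and 919 in K562. EBP, a sterol isomerase, had 1460.3 and 1279 in U266 and 1559 and 1378 in K562. Both were below vehicle in each line, LSS at −0.13 and −0.14, and EBP had the lowest ratio of the sterol enzymes in both, at −0.18 and −0.17. TM7SF2, a sterol reductase, had intensities of 591 and 519.9 in U266 and 514 and 563 in K562, which was −0.18 and 0.14 on the log2 scale. NSDHL, which takes part in C4 demethylation with MSMO1, had 1123 and 1149 in U266 and 2077 and 1864 in K562. NSDHL and MSMO1, enzymes of the same demethylation, therefore lay on opposite sides of vehicle in K562, at −0.15 and 0.46.

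The 4 fatty acid enzymes lay at or below vehicle in U266 and on both sides of it in K562. Their median log2 ratios were −0.03 in U266 and −0.06 in K562, with 0 genes past 1.5-fold. FASN, fatty acid synthase, had intensities of 779 with vehicle and 645 with atovaquone in U266, and 2876 and 2696 in K562. Its U266 log2 ratio of −0.26 was the lowest of the listed genes in that line, ranked 326 from the lowest of all, and its K562 value was −0.09. ACACA, the acetyl-CoA carboxylase that makes malonyl-CoA, had intensities of 861 and 821 in U266 and 1760.2 and 1503 in K562, with log2 ratios of −0.06 and −0.22. ACLY, which makes cytosolic acetyl-CoA from citrate, had 2611 and 2579 in U266 and 3905 and 3823 in K562. SCD, the stearoyl-CoA desaturase, had 1669 and 1658 in U266 and 4453 and 4655 in K562. SCD and ACLY were within 10% of vehicle in both lines, and 3 of the 4 lay below vehicle in K562, SCD being the exception at 0.07.

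The roles are set side by side here as medians. For the 16 sterol and mevalonate enzymes together, the median log2 ratios were −0.01 (U266) and 0.03 (K562), with 8 and 9 of 16 above vehicle. The regulators with STARD4 had medians of 0.03 over 6 genes and 0.16 over 5, the latter lying between 0.05 and 0.17 under the other settings, and the fatty acid enzymes −0.03 and −0.06 over 4. Without INSIG1, the medians over all listed genes were −0.0079 in U266 and −0.0088 in K562, with 11 of 25 and 12 of 24 above vehicle, and the K562 mean was 0.03.

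Of 25 genes measured on all 4 arrays, 8 lay above vehicle in both lines and 8 below it in both, so 64.0% had the same sign, beside 53.5% of all 9222 genes. Some of these signs depend on the processing. SC5D and DHCR7 count as above in both, but their U266 log2 ratios of 0.0033 and 0.0043 turn negative without centring. ACLY counts as below in both, but its U266 value of −0.0079 turns positive without a floor. The rank correlation of the U266 with the K562 ratio was 0.35 over the 25 genes, beside 0.10 over all genes, and 0.27 without INSIG1. The Pearson correlation was 0.39 over the 25 genes and 0.13 without INSIG1, beside 0.09 over all genes, so INSIG1 carried most of it. The lines share no array, but they share the platform and the drug, and they differ in dose and time.

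**Figure D3:**
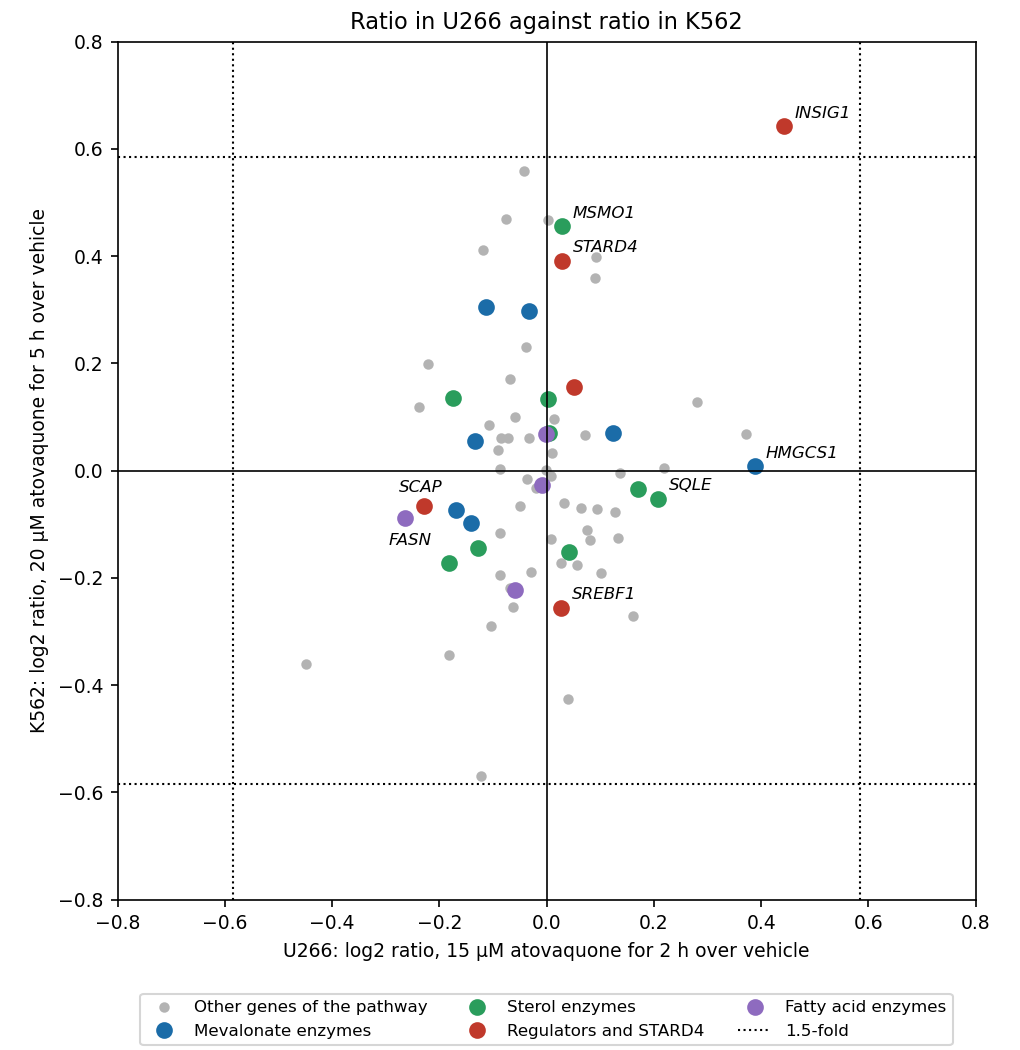
Each listed gene is placed by its log2 ratio in U266 (x axis, 15 µM for 2 h) and in K562 (y axis, 20 µM for 5 h), coloured by role, with other genes of the pathway in grey and dotted lines at 1.5-fold. INSIG1 lies alone in the upper right, MSMO1 and STARD4 lie high on the K562 axis near 0 on the U266 axis, and HMGCS1 lies to the right near 0 on the K562 axis.

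Other genes of lipid synthesis and sterol handling were taken from 4 further lists. None of the 57 measured in U266 or of the 55 measured in K562 passed 1.5-fold in either direction. Over all measured genes, 0.857% passed it upward and 0.0932% downward in U266, and 1.42% and 0.697% in K562. With shares that low, lists of this size would hold few such genes or none. In genes of SREBP processing and its control, 7 of 16 lay above vehicle in U266 and 4 of 16 in K562, with medians of −0.03 and −0.09. The lowest in U266 was RNF145, a ubiquitin ligase of the endoplasmic reticulum, at −0.45, beside −0.36 in K562, and the highest was RNF139 at 0.16. The U266 intensities of RNF145 were 488 with vehicle and 355 with atovaquone, the latter near that array's floor of 324. In K562 the COPII coat GTPase gene SAR1B was lowest at −0.42, and ERLIN2, an endoplasmic reticulum lipid raft protein gene, was highest at 0.47. The K562 intensities of ERLIN2 were 373 with vehicle, near that array's floor of 305, and 514 with atovaquone.

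In the further fatty acid genes, medians were −0.0059 over 19 genes in U266, where the mean was 0.0043, and −0.0049 over 18 in K562. ELOVL6, the elongase that follows FASN, was lowest in both lines, at −0.12 in U266 and −0.57 in K562, the latter from intensities of 2448 with vehicle and 1645 with atovaquone. LPIN1, a phosphatidate phosphatase, was highest in U266 at 0.22, and ACSL1, an acyl-CoA synthetase, highest in K562 at 0.56. In sterol export and storage genes medians were −0.02 over 12 genes and 0.05 over 10. MYLIP, a ubiquitin ligase gene induced through the sterol sensor LXR, was highest in U266 at 0.37, and STARD5, a sterol carrier gene, was lowest at −0.55. The U266 intensities of MYLIP were 349 with vehicle, near that array's floor of 331, and 449 with atovaquone. In K562 the lysosomal sterol carrier gene NPC2 was highest among the genes measured on both arrays, at 0.36, and the acyltransferase gene SOAT1 was lowest at −0.13. In the isoprenoid branches medians were −0.07 over 10 genes and 0.06 over 11. PGGT1B and GGPS1, of protein geranylgeranylation, were highest and lowest in U266 at 0.28 and −0.22. RABGGTA, of Rab prenylation, and DHDDS, of dolichol synthesis, were highest and lowest in K562 at 0.47 and −0.25.

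The vehicle arrays show the level at which each line held these genes before any drug, though after 2 h of DMSO in U266 and 5 h in K562. The 4 fatty acid enzymes were all higher in K562. FASN was 3.63-fold higher there, from 779 in U266 to 2876 in K562, SCD 2.62-fold, ACACA 2.01-fold and ACLY 1.47-fold, and the median log2 difference, U266 minus K562, was −1.20. Of 17 further fatty acid genes measured on both vehicle arrays, 9 were higher in K562 and 8 in U266, with a median of −0.01. Of the sterol enzymes SC5D was 2.74-fold higher in K562, and SQLE had a log2 difference of −1.07. In all, 5 of 25 measured genes had at least 2-fold more signal in K562 and 0 had it in U266, beside 6.97% and 7.97% of the 9483 genes measured on both vehicle arrays. ACACA lay just inside the limit, and its log2 difference of −1.01 became −0.99 with quantile normalisation. DHCR7 lay just outside, at 1.90-fold. Log2 differences between probe sets of 1 gene varied with an SD of 0.38 in this comparison, over 276 genes.

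On the U266 side the differences were smaller. MSMO1 was 1.58-fold, PMVK 1.57-fold and FDPS 1.51-fold higher in U266, and INSIG1 1.36-fold. INSIG2 was under the floor in K562 and at least 1.79-fold higher in U266. The mevalonate enzymes had a median log2 difference of −0.04, with 3 of 7 higher in U266, and the sterol enzymes −0.09, with 3 of 9. HMGCS1, NSDHL and DHCR7 were higher in K562, at 1.69-fold, 1.82-fold and 1.90-fold. Over all the listed genes the median was −0.19, with 18 of 25 higher in K562, beside −0.0071 over all genes. SREBF1 and SREBF2 differed little between the lines, at −0.03 and −0.19.

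**Figure D4:**
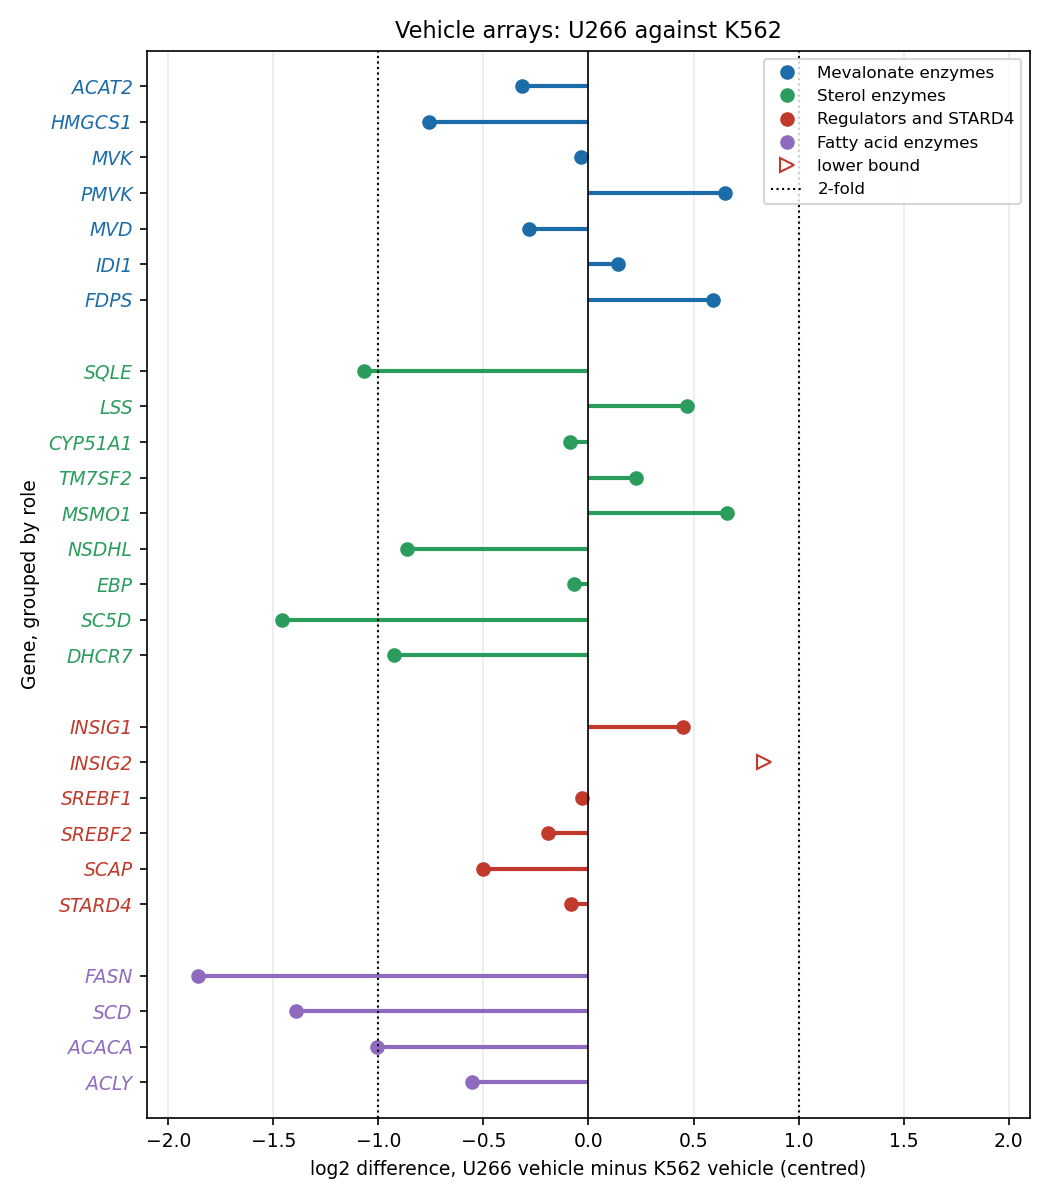
The log2 difference between the vehicle arrays (x axis, U266 minus K562, centred on all measured probe sets) is plotted for each gene, 1 array against 1 array, coloured by role. An open triangle is a lower bound, and dotted lines mark 2-fold. All 4 fatty acid enzymes lie left of 0, FASN farthest at −1.86, while sterol and mevalonate enzymes lie on both sides.

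The arrays matched their labelled cell types. All 10 plasma cell markers were at least 2-fold higher in U266, JCHAIN by at least 35.6-fold, and 8 of 9 erythroid and megakaryocytic markers were at least 2-fold higher in K562, HBZ by 17.9-fold. Of other cell types, K562 carried the monocyte marker LYZ and the epithelial markers KRT8, KRT18 and EPCAM. No T cell or fibroblast marker was shown to differ by 2-fold. The T cell marker CD3D and the fibroblast marker COL3A1 were under the floor in U266 and have only bounds. They were at least 1.41-fold and 1.12-fold higher in K562, which does not exclude 2-fold. With atovaquone, the marker lists moved little. Summed intensities of plasma cell markers were 43473 and 45488 in U266, and those of erythroid markers 24196 and 24830.2 in K562. The plasma cell gene XBP1, which encodes a transcription factor of the unfolded protein response, had a log2 ratio of 0.63 in K562, and its part in the values above was not tested. Bulk RNA cannot tell fewer expressing cells from less RNA per cell.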

How the data were processed

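Each of the 4 groups gave 1 array, hybridised with biotinylated cRNA made by Affymetrix's standard method, per the labels' protocols. The deposited values are the authors' processed intensity of each probe set on a linear scale. How they were corrected for background, normalised and summarised is not given in the sources used here, and centring removes any change shared by most genes. Of 33252 probe sets, 21214 were listed in the platform annotation, 19460 with 1 symbol and 1754 with several. Those with 1 symbol gave 18417 genes, each represented by its probe set with the highest mean log2 intensity. 19429 matched RefSeq (GRCh38.p14) by Entrez identifier and 0 symbols differed. Array medians were 314 to 340 and floors 305 to 331.

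Values under an array's floor, its 40th percentile over listed probe sets, were raised to it. Log2 ratios were centred on the median of probe sets measured on both arrays, which removed −0.0096 in U266, −0.0048 in K562 and −0.02 between vehicle arrays. A gene under the floor on 1 array has a bound. Counts used 1.5-fold within a line and 2-fold between lines, with no test. The number of arrays limits the precision. The calculation was tested on simulated data.

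All listed genes are named. Of each further list, genes past 1.5-fold and the highest and lowest ratio per line are named, and of each marker list up to 3 genes. Members and lists were chosen with earlier results of these data known. Alternatives were no floor, floors at the 20th and 60th percentile, no centring, quantile normalisation, and the mean over probe sets. Python 3.11.15, pandas 2.3.3, numpy 2.4.6 and scipy 1.17.1 were used.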

Additional observations from a re-analysis of the deposited data

Results flagged for a closer look

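STARD5, a gene for a soluble sterol carrier, lay on opposite sides of vehicle in the 2 lines, each by more than 2 SD of single probe-set ratios. In U266 its intensities were 737 with vehicle and 499 with atovaquone, a log2 ratio of −0.55. In K562 it was under the floor with vehicle, at 245, and 372 with atovaquone, a log2 ratio of at least 0.29. With 1 array per group the difference between lines was not tested, and the lines differ in dose and time.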

How the results depend on the processing

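Of 378 recomputed counts and medians, 369 stayed within 1.5 times the count or within 1 SD of probe-set ratios, and 9 moved, each by construction of the floor. Much of that agreement was fixed beforehand, so it says little about how firm the values are. Most counts within a line are 0, and most listed genes have 1 probe set. The SDs of 0.11 in U266 and 0.12 in K562 exceed most medians within a line. The K562 median of the regulators with STARD4 fell from 0.16 to 0.05 and still counted as unchanged. Without a floor, or with a floor lowered to the 20th percentile, INSIG2 is measured on both vehicle arrays, which makes 1 listed gene, and 1 regulator, at least 2-fold higher in U266 in place of 0. Under the same settings STARD5 is measured in K562, which makes 1 gene of the further lists pass 1.5-fold upward there in place of 0. With the floor at the 60th percentile 3 listed genes in place of 5, and 1 sterol enzyme in place of 2 (so also 1 of all sterol and mevalonate enzymes), were at least 2-fold higher in K562, since SC5D has only a bound there and ACACA stood at −0.99. Medians near 0 changed sign between settings, from −0.01 to 0.0054 for all listed genes in U266 and from −0.0036 to 0.02 in K562. Signs of SCD, ACLY, SC5D and DHCR7 in U266, all within 0.01 of 0, also changed under some settings, and that of CYP51A1 between vehicle arrays was 0.07 with the mean over its probe sets. No paired analysis was possible because each group has 1 array.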

Other observations

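The further lists showed larger differences between the vehicle arrays than within a line, as did all measured genes. The central 95% of all measured genes spanned log2 values of −1.51 to 1.68 between the vehicle arrays. Within a line it spanned −0.28 to 0.34 in U266 and −0.42 to 0.48 in K562. For 52 genes of the further lists, both vehicle arrays gave a value. Of these, 7 had at least 2-fold more signal in U266 and 4 had it in K562, beside 7.97% and 6.97% of all genes. NPC2, a lysosomal carrier of cholesterol, had intensities of 4347 in U266 and 612 in K562 and was 7.23-fold higher in U266. LIPA, the acid lipase that frees lysosomal cholesterol from its esters, stood at 1591 in U266 and under the floor in K562, so at least 5.30-fold higher. HACD2, a dehydratase of very long chain fatty acid elongation, was 5.26-fold higher in U266, and SEC24D, a COPII coat subunit, 3.91-fold. FADS2, a fatty acid desaturase, was 2.27-fold and ACSS2, which makes acetyl-CoA from acetate, 2.02-fold higher in U266, the opposite direction to the 4 listed fatty acid enzymes. AACS, which turns acetoacetate into a substrate for lipid synthesis, was 3.06-fold and MBTPS1, the Golgi protease that makes the first cut in SREBP, 2.57-fold higher in U266.

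On the K562 side, MYLIP was 3.29-fold higher and NR1H3, which encodes LXR alpha, under the floor in U266 and at least 3.53-fold higher. SLC25A1, the mitochondrial citrate carrier that feeds ACLY, was 2.66-fold higher in K562, and PDSS1, of ubiquinone side chain synthesis, 2.42-fold. ELOVL5, a fatty acid elongase, was 2.03-fold higher in K562. ABCA1, a cholesterol exporter and LXR target, went the other way. It was under the floor in K562 and at least 2.21-fold higher in U266, where NR1H3 was under the floor. NR1H2, which encodes the other LXR, had no listed probe set, so its level in either line is not known here. Genes in these paragraphs were chosen after their values were seen.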
